A study of Mus musculus with 9 samples.

Results

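Sites enriched with an antibody to XBP1 were compared between 3 libraries of mouse liver in which XBP1 had been silenced. The liver was taken in the basal state, 6 h after partial hepatectomy and 48 h after partial hepatectomy. The members were all peaks (regions of enriched reads) in the deposited lists of these 3 libraries, 4604 of the 64078 peaks in the 8 lists of the series. The silenced basal list held 177 peaks, the silenced 6 h list 4325 peaks and the silenced 48 h list 102 peaks.

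XBP1 is a transcription factor through which cells answer stress of the endoplasmic reticulum, the unfolded protein response. When unfolded proteins build up there, the sensor IRE1 cuts the XBP1 messenger RNA, and the spliced form is translated into the active factor, which raises genes for chaperones, protein degradation and secretion. Hepatocytes secrete most plasma proteins and use this pathway heavily, and partial hepatectomy makes the remaining liver lobes regrow while they keep secreting. Sites that still give a signal with an antibody to XBP1 when its messenger RNA is silenced can stem from XBP1 that is left, or from signal that does not depend on XBP1, and these lists cannot tell them apart.

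All livers came from C57Bl6-J mice of wild-type genotype. Silencing (shXBP1) used an adenovirus, injected into the tail vein, that expresses a short hairpin RNA against XBP1. Clodronate liposomes, which deplete macrophages, had been injected 24 h before the virus. The silenced basal liver was taken 7 days after silencing, and the other 2 silenced livers 6 h and 48 h after a hepatectomy performed 7 days after silencing. The unsilenced livers used for comparison were basal, 6 h and 48 h after partial hepatectomy, and 6 h and 48 h after a sham operation, in which the abdomen was opened and the lobes exposed without removing them. Operations were done at 8 weeks of age. The protocols also name a control virus with a hairpin against LacZ, but the labels do not say that any of these livers received it. Virus, clodronate and silencing therefore cannot be told apart in a comparison of silenced with unsilenced livers, whereas the 3 silenced livers share all of them. A silenced liver after sham operation was not part of the series, so hepatectomy and surgery itself cannot be told apart within the silenced livers. No source used here gives how far XBP1 was lowered in each silenced liver, how many animals went into a library or how many reads were sequenced. In whole liver, fewer cells with bound XBP1 and less binding per cell cannot be told apart.

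There was 1 library per condition, so differences could not be compared with the variation among animals and no p-value was computed. Ranges in parentheses after a share are 95% Clopper-Pearson intervals, which cover counting error only. Positions are in mm9 and peaks are named by their position, because no gene annotation of that build was used here. Each peak carries a score given by the authors' peak caller, taken here as −log10 of a p-value, so that a higher score is a stronger call. Scores mainly serve to rank peaks within their own list. Where a common score threshold is applied, or scores of several lists stand side by side, the lists need not share a scale. Rank 1 is the highest score. Among equal scores the wider peak came first, so rank partly holds width. Ties were common, with 473 distinct scores among the 4325 silenced 6 h peaks.

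The 3 silenced lists differed in peak width before any comparison of sites. The shortest peak was 53 bp in the silenced basal list, 247 bp in the silenced 6 h list and 53 bp in the silenced 48 h list, and the medians were 103 bp, 333 bp and 94 bp. Peaks of 100 bp or less made up 49.2% of the silenced basal list and 53.9% of the silenced 48 h list, while the silenced 6 h list held none. In the 5 unsilenced lists the shortest peak had from 190 bp to 266 bp, so the silenced 6 h list resembled these in its lower limit and the other 2 silenced lists did not. Chromatin had been sheared to about 300 bp on average. Settings of the peak calling are not given, and the part that narrow calling has in the low peak numbers of the silenced basal and 48 h lists was not tested.

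**Figure D1:**
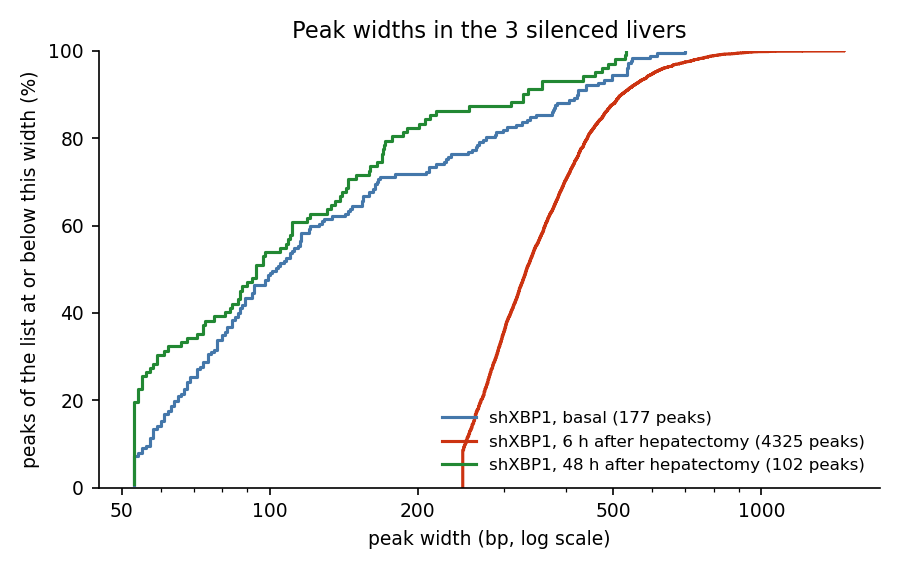
Cumulative share of peaks (y axis, in %) at or below each width (x axis, in bp, log scale) in the 3 silenced lists, 1 line per library. The line for 6 h starts at 247 bp, while both other lines start at 53 bp and pass their median near 100 bp (103 bp basal, 94 bp at 48 h).

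Peak number was far higher 6 h after hepatectomy than in the other silenced livers. The silenced 6 h list had 24.4 times as many peaks as the silenced basal list, and the silenced 48 h list had 0.0236 times as many as the silenced 6 h list. Peaks of the silenced 6 h list covered 1592 kb, against 30.4 kb in the silenced basal list. Those of the silenced 48 h list covered 14.3 kb. When scores below 20 were dropped from every list, 21 peaks stayed in the silenced basal list, 1385 in the silenced 6 h list and 6 in the silenced 48 h list. The ratio of silenced 6 h to silenced basal peaks was then 66.0, and that of silenced 48 h to silenced 6 h peaks was 0.00433. With peaks over 100 bp only, these ratios were 48.1 and 0.0109. Unsilenced livers also had their highest peak numbers at 6 h, after hepatectomy (22071) and after sham operation (23087). The other unsilenced lists held 2482 peaks (basal), 7212 (48 h after hepatectomy) and 4622 (48 h after sham operation).

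Most peaks of the short silenced lists lay on sites that also carried a peak at 6 h. Of the 177 silenced basal peaks, 159 (89.8%, 84.4 to 93.9%) overlapped a silenced 6 h peak by at least 1 bp, and of the 102 silenced 48 h peaks 78 (76.5%, 67.0 to 84.3%) did. Of those that overlapped, 154 of the 159 basal peaks and all 78 of the 48 h peaks lay wholly inside a 6 h peak, and they spanned a median of 19.3% and 14.8% of its width. Several narrow peaks could fall on a single 6 h peak: 121 silenced 6 h peaks were hit by the basal list, 32 of them more than once, and 66 were hit by the 48 h list, 11 of them more than once. The midpoints of 96 basal peaks and 52 of the 48 h peaks were within 100 bp of the midpoint of the 6 h peak. When at least 50% of each peak had to lie in the other, the shares were 15.3% and 6.86%, which unlike widths lower by construction. Between equal numbers of highest-scoring peaks they were 64.4% and 53.9%.

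The silenced 48 h and silenced basal lists, of like width, also shared sites with each other. Of the silenced 48 h peaks, 56 (54.9%, 44.7 to 64.8%) overlapped a silenced basal peak, and 53 of the silenced basal peaks (29.9%, 23.3 to 37.3%) overlapped a silenced 48 h peak. When at least 50% of each peak had to lie in the other, the share of silenced 48 h peaks was 26.5%. Overlap was more frequent at the top of each list than over the whole list, with the larger difference in the silenced basal list. Of the 25 highest-scoring peaks, 19 of the silenced 48 h list lay on a silenced basal peak, and 19 of the silenced basal list lay on a silenced 48 h peak.

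A small set of sites carried a peak in all 3 silenced livers. At 6 h these were 56 peaks, spread over 20 chromosomes, of which 43 were among the 100 highest-scoring silenced 6 h peaks. Another 65 silenced 6 h peaks were shared with the silenced basal list alone and 10 with the silenced 48 h list alone, which gives 131 shared peaks (3.03%, 2.54 to 3.58%). Over the 56 sites, Spearman's rho between ranks was 0.54 for 6 h and basal, 0.60 for 6 h and 48 h, and 0.48 for 48 h and basal, given as descriptions, since all lists share peak caller and genome. All 5 unsilenced lists carried a peak at 54 of the 56, and the other 2 lacked one only in the unsilenced list 48 h after hepatectomy.

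Of the sites found in all 3 silenced livers, the 10 with the highest scores at 6 h began with a pair that led every silenced list. The highest-scoring site lay on chromosome 2 (34626831 to 34627896). It had rank 1 in each silenced list, with a peak of 698 bp in basal liver, 1066 bp at 6 h and 531 bp at 48 h. Its scores there were 59.45, 377.07 and 33.67. The site on chromosome 10 (86167930 to 86168869) had rank 2 in each, with peaks of 593 bp, 940 bp and 529 bp. Below these the order differed between the lists. The site on chromosome 6 (28429768 to 28430487) had rank 5 in basal liver, 3 at 6 h and 27 at 48 h, and at 48 h it was split into 3 narrow peaks. That on chromosome 11 (50138895 to 50139785) had ranks 6, 4 and 9, and that on chromosome 5 (142875934 to 142876596) had ranks 18, 5 and 57. On chromosome 15 (88908426 to 88909237) the ranks were 48 in basal liver, 6 at 6 h and 14 at 48 h, and on chromosome 8 (14995620 to 14996382) they were 12, 7 and 53. A pair of sites on chromosome 2 followed, at 75496559 to 75497400 with ranks 15, 9 and 10 and at 158222731 to 158223553 with ranks 3, 10 and 21. The tenth site, on chromosome 19 (60866269 to 60867068), had rank 76 in basal liver, 11 at 6 h and 5 at 48 h. At all 10 sites the silenced peak was widest at 6 h, between 663 bp and 1066 bp, and each of the 5 unsilenced lists carried a peak. The 10 were chosen by their score at 6 h, in the silenced list with the widest peaks, which favours wide 6 h peaks.

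Nearly all sites of the silenced 6 h liver had no peak in the other silenced livers. Of the 4325 peaks, 4194 (97%, interval 96.4 to 97.5%) overlapped neither a silenced basal nor a silenced 48 h peak. Among the unsilenced lists the corresponding share, 6 h hepatectomy peaks in neither the basal nor the 48 h hepatectomy list, was 69.9% of 22071 peaks. The other silenced lists held only 177 and 102 peaks, so most of the 4325 had to be absent from both. With each silenced list cut to its 102 highest scores the share was 37.3%. That cut also keeps only the top-ranked 6 h peaks, so list length and rank cannot be told apart in it. Few of the 4194 peaks were near misses. Of these, 12 had a peak of another silenced list within 1000 bp and the closest was 108 bp away.

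Presence in the other silenced livers followed score rank closely. The 35 highest-scoring silenced 6 h peaks all had a peak in the silenced basal list. Of the 100 highest-scoring, 69 (59.0 to 77.9%) were in the silenced basal list, 45 (35.0 to 55.3%) in the silenced 48 h list and 29 (20.4 to 38.9%) in neither. Of the 1000 highest-scoring, 877 were in neither. In the first decile by rank (scores from 39.75 to 377.07) 114 of 433 peaks were shared, in the second 6 of 432, and over the 3 lowest-scoring deciles 1. The first peak without a silenced basal counterpart was at rank 36, and the first without a silenced 48 h counterpart at rank 8.

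**Figure D2:**
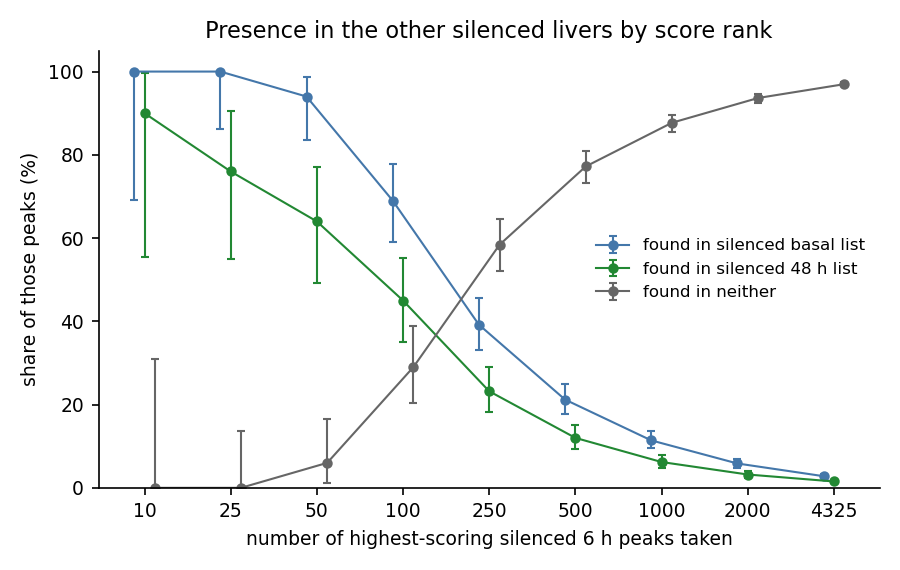
Share (y axis, in %) of the highest-scoring silenced 6 h peaks, with the number taken on the x axis, that overlapped a silenced basal peak, a silenced 48 h peak or neither. Bars are 95% Clopper-Pearson intervals. The share in neither list is 0 of the first 25 peaks (interval up to 13.7%), 29% of the first 100 and 97% of all 4325.

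Sites found at 6 h alone had lower ranks and narrower peaks than the shared ones. Their median rank was 2225.5, against 82 for shared sites, and their median width was 330 bp (quartiles 278 and 410 bp) against 626 bp (543.5 and 750 bp). Peaks over 500 bp made up 9.94% of the 6 h-only sites and 82.4% of the shared sites, and peaks under 300 bp made up 36.7% and 1.53%. Width itself decreased down the ranks, with a Spearman's rho between score and width of 0.71 over the 4325 peaks, a description within 1 library. Within bins of rank the widths were closer over part of the list. Ranks still differed within the bins up to rank 433. There the 6 h-only peaks had median ranks of 78, 156.5 and 322.5, and the shared peaks 38, 128.5 and 272. Among the first 100 ranks the median width was 562 bp for the 29 6 h-only peaks and 700 bp for the 71 shared peaks. From rank 101 to 200 it was 534.5 bp and 550.5 bp, over 74 and 26 peaks. From rank 201 to 433 it was 475.5 bp and 477 bp, over 216 and 17 peaks. Further down, few peaks were shared and these were again wider. From rank 434 to 1000 the medians were 425 bp for 558 6 h-only peaks and 596 bp for 9 shared peaks. From rank 1001 to 2000 they were 364 bp for 6 h-only peaks and 417.5 bp for 4 shared peaks, and below rank 2000 they were 286 bp and 499 bp, again with 4 shared peaks.

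**Figure D3:**
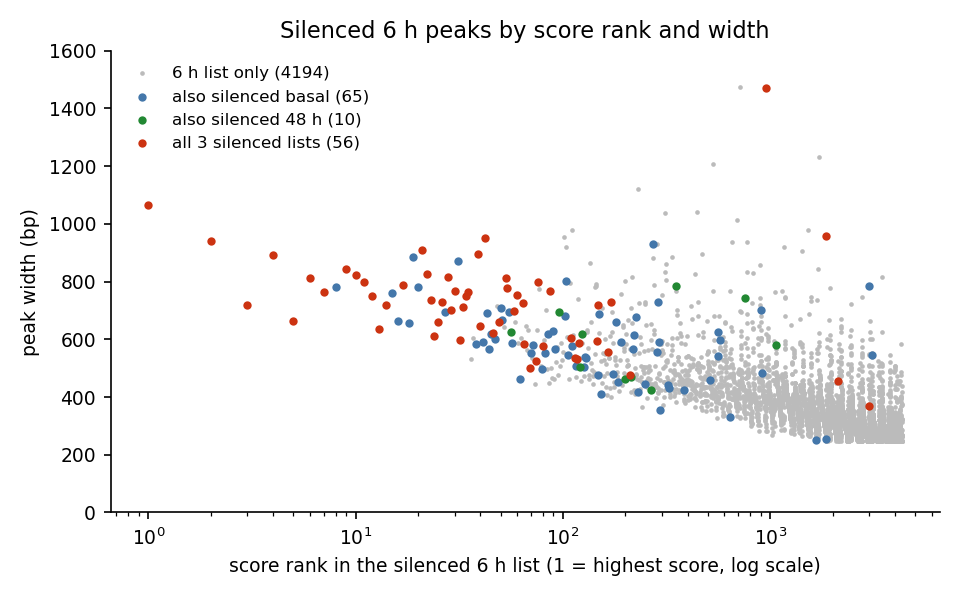
Each point is 1 of the 4325 silenced 6 h peaks, placed by its score rank (x axis, log scale, 1 is the highest score) and its width (y axis, in bp). Grey points are found at 6 h alone and begin at rank 36, and coloured points are shared with the silenced basal list, the silenced 48 h list or both, with 114 of the 131 among the first 433 ranks.

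The 10 highest-scoring sites found at 6 h alone had ranks between 36 and 68 and widths between 533 bp and 714 bp. The first lay on chromosome 11 (118304495 to 118305027, score 164.14). It carried a peak in 4 unsilenced lists, all but the basal one. The second lay on chromosome 18 (90756170 to 90756775, score 163.22) and the third on chromosome 3 (113270896 to 113271609, score 136.53), both with a peak in all 5 unsilenced lists. Others with a peak in all 5 lay on chromosome 7 (86902681 to 86903322), chromosome 5 (66405090 to 66405677 and 100845207 to 100845839), chromosome 3 (93357246 to 93357890) and chromosome 15 (75215472 to 75216033). Chromosome 2 held a site (72676012 to 72676672, rank 59) with a peak in 3 unsilenced lists, those of both 6 h operations and of 48 h after hepatectomy. The site on chromosome 6 (37743999 to 37744602, rank 63) had one in 2, both at 6 h. Thus 7 of the 10 were sites of unsilenced basal liver, although the silenced basal list held no peak there. For comparison, 39.1% of all 4194 peaks found at 6 h alone had an unsilenced basal peak. Of the 29 such peaks among the first 100 ranks, 25 (86.2%) did.

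The unsilenced basal list, which is longer and has wider peaks than the silenced one, gave a second base line for what appeared at 6 h. Of the silenced 6 h peaks, 2559 (59.2%, interval 57.7 to 60.6%) overlapped no unsilenced basal peak. The same share was 89.1% for the unsilenced 6 h hepatectomy list, which is far longer. With both lists cut to their 2482 highest scores, the share for the silenced 6 h list was 43.8%. Sites absent from both basal lists, silenced or not, numbered 2556, with a median rank of 2746.5 and a median width of 302.5 bp, and 41 of them were among the first 433 ranks. Of these 2556 sites, 97.0% carried a peak in the unsilenced 6 h hepatectomy list, 92.2% in the 6 h sham list, 54.7% in the 48 h hepatectomy list and 38.7% in the 48 h sham list.

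Sorted by the unsilenced livers in which they occur, the silenced 6 h peaks differed in rank and width. The 1766 peaks (40.8%) at sites of basal liver had a median rank of 1172.5 and a median width of 401 bp. Another 1646 (38.1%), absent from basal liver but with a peak 48 h after hepatectomy or sham operation, had a median rank of 2549 and a median width of 314 bp. The 717 (16.6%) with a peak in both unsilenced 6 h lists and in no other had a median rank of 3005 and a median width of 291 bp. A further 130 had a peak in the unsilenced 6 h hepatectomy list alone and 18 in the 6 h sham list alone, with median ranks of 2901 and 3255.5 and median widths of 291 bp and 280 bp. The remaining 48 (1.11%) had none in any unsilenced list, with a median rank of 3230 and a median width of 262.5 bp. Of the 131 shared sites 128 belonged to the first of these groups and 3 to the second.

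Presence in the unsilenced lists held up differently along the ranks. Both 6 h lists covered almost all silenced 6 h peaks at every rank: in the first decile 100% were found in the hepatectomy list and 99.8% in the sham list, and in the lowest-scoring decile 95.4% and 90.7%. For the 48 h hepatectomy list the share was 97.7% in the first decile and 49.3% in the lowest-scoring, and for the 48 h sham list 94.7% and 34.5%. For the basal list it was 90.3% and 18.1%. The fall was steepest for basal liver and smallest for the 6 h lists, which are also the longest.

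**Figure D4:**
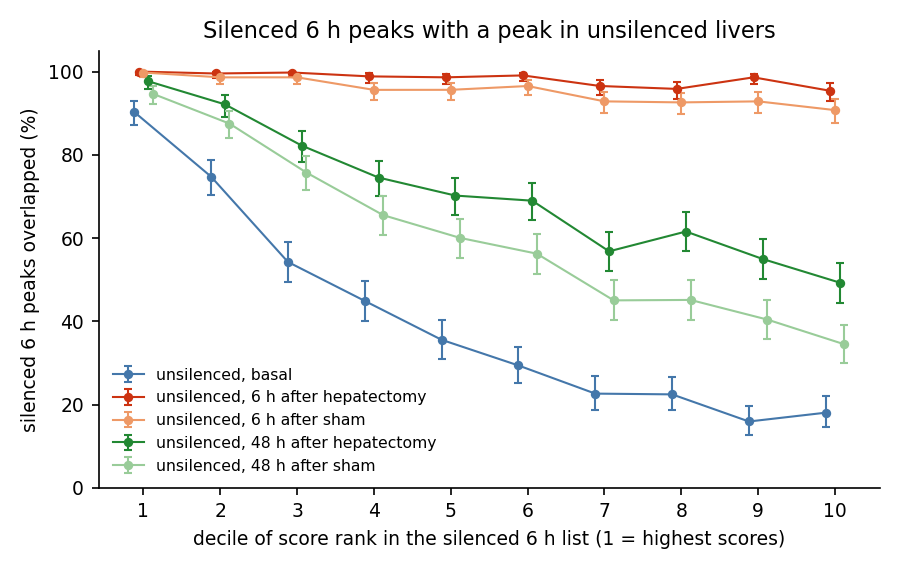
Share (y axis, in %) of silenced 6 h peaks that overlapped a peak of each unsilenced list, by decile of score rank (x axis, 1 holds the highest scores). Bars are 95% Clopper-Pearson intervals. Both 6 h lists stay above 90% throughout, while the basal list goes from 90.3% in decile 1 to 18.1% in decile 10.

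At equal list length the shares of the silenced 6 h list and of the unsilenced 6 h hepatectomy list found in the other lists were of similar size, and somewhat lower for the silenced list in each of the 4 other unsilenced lists. The 4325 highest-scoring unsilenced peaks were taken for this. In the unsilenced basal list 40.8% (39.4 to 42.3%) of the silenced and 42.4% (40.9 to 43.9%) of the unsilenced peaks were found, and in the 48 h hepatectomy list 70.8% (69.5 to 72.2%) and 76.0% (74.7 to 77.3%). In the 6 h sham list the shares were 95.4% (94.7 to 96.0%) and 98.8% (98.5 to 99.1%), and in the 48 h sham list 60.5% (59.0 to 61.9%) and 64.2% (62.7 to 65.6%). In the silenced basal list they were 2.80% and 2.71%, and in the silenced 48 h list 1.53% and 1.50%. Absent from both the unsilenced basal and the 48 h hepatectomy list were 26.8% of the silenced and 22% of the unsilenced peaks. Widths did differ, with medians of 333 bp for the silenced and 674 bp for the unsilenced peaks. No spread between animals was available for any of these pairs of shares.

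Peak by peak, the silenced 6 h sites were narrower than their unsilenced counterparts. Of the 4248 silenced 6 h peaks that overlapped an unsilenced 6 h hepatectomy peak, 4169 (98.1%) were narrower than the highest-scoring one they overlapped, with a median ratio of silenced to unsilenced width of 0.553. Midpoints lay a median of 47 bp apart. The ratio was 0.552 for sites found at 6 h alone and 0.569 for shared sites. The unsilenced counterparts of the 6 h-only sites had a median rank of 2496 of 22071, and those of the shared sites a median rank of 83. Of the 100 highest-scoring silenced peaks, 69 had a counterpart among the 100 highest-scoring unsilenced peaks. Spearman's rho between both ranks was 0.65 over 4248 peaks, again a description.

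The sites that appeared most strictly at 6 h were those absent from every basal and every 48 h list. They numbered 913 (21.1%, 19.9 to 22.4%), with a median rank of 3011 and a median width of 288 bp. Of these, 847 (92.8%) had a peak in the unsilenced 6 h hepatectomy list and 735 (80.5%) in the 6 h sham list. Both shares were lower than over all silenced 6 h peaks, 98.2% and 95.4%. Only 6 of the 913 sites were among the first 433 ranks, and these were chosen after their values were seen. The first was the site on chromosome 6 at 37743999 given above. The second lay on chromosome 18 (60368799 to 60369280, rank 164, 482 bp) and the third on chromosome 13 (45719125 to 45719658, rank 166, 534 bp). The others lay on chromosome 10 (87319152 to 87319610, rank 253, 459 bp), chromosome 3 (125459741 to 125460265, rank 313, 525 bp) and chromosome 13 (102280471 to 102280923, rank 418, 453 bp). The unsilenced 6 h hepatectomy list had a peak at all 6, and the 6 h sham list at all but that on chromosome 3.

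Silenced 6 h sites with no peak in any unsilenced list were weak calls. The highest-scoring of the 48 lay on chromosome 1 (42648706 to 42649193, 488 bp) at rank 696, and it was the only one of them among the first 1000 ranks. The next lay on chromosome 19 (52639967 to 52640293, rank 1708), chromosome 18 (11912961 to 11913421, rank 1734) and chromosome 5 (140045767 to 140046065, rank 1830, and 68386413 to 68386676, rank 1854). Their widths were between 264 bp and 461 bp.

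The 5 widest silenced 6 h peaks had ranks between 231 and 1722, and the peak at rank 1, with 1066 bp, came next in width. The 5 lay on chromosome 18 (13131596 to 13133070, 1475 bp, rank 717), chromosome 17 (39980813 to 39982284, 1472 bp, rank 954), chromosome 14 (21871900 to 21873132, 1233 bp, rank 1722), chromosome 17 (36052827 to 36054034, 1208 bp, rank 531) and chromosome 3 (122970020 to 122971141, 1122 bp, rank 231). Of these 5, the peak on chromosome 17 at 39980813 was the one shared with the other silenced livers, with 5 silenced basal and 2 silenced 48 h peaks on it.

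The silenced basal peaks absent at 6 h were narrow and mostly came from a pair of places. They numbered 18, with widths from 54 bp to 180 bp, and 15 of them had no peak in any other list. A run of 6 lay on chromosome 2 (98502485 to 98507316) and a run of 5 on chromosome 9 (3000036 to 3025550), and none of the 7 other lists had a peak in either stretch. The highest-scoring of the 18 lay in the stretch on chromosome 9, at 3022097 to 3022222 (rank 17) and 3000388 to 3000502 (rank 30). The next lay on chromosome 11 (108873121 to 108873224, rank 38), a site with a peak in 4 unsilenced lists, on chromosome 6 (3151479 to 3151539, rank 52) and in the run on chromosome 2 (98506577 to 98506644, rank 56). Without the 5 regions in which at least 3 silenced basal peaks followed each other at gaps of 20000 bp or less, the share of silenced basal peaks found at 6 h was 95.9%.

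The run with the most peaks carried peaks in all 3 silenced livers. It lay on chromosome 17 (39979972 to 39985647) and held 14 silenced basal, 5 silenced 6 h and 5 silenced 48 h peaks. The unsilenced lists held 3 peaks there in basal liver, 1 at 6 h and 4 at 48 h after hepatectomy, and 4 at 6 h and 1 at 48 h after sham operation, and that of 6 h after hepatectomy was 6070 bp wide. The run thus accounted for 14 of the 177 silenced basal peaks and 5 of the 102 silenced 48 h peaks, but only 5 of the 4325 silenced 6 h peaks.

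The silenced 48 h peaks absent at 6 h were also narrow. They numbered 24, with widths from 53 bp to 254 bp. Of these, 7 lay within 1000 bp of a silenced 6 h peak, against 1 of the 18 silenced basal peaks absent at 6 h. No other list had a peak at 16 of the 24. The highest-scoring lay on chromosome X (51379270 to 51379322, rank 12), chromosome 7 (71286254 to 71286430, rank 17, and 113379579 to 113379832, rank 19), chromosome 11 (86397185 to 86397328, rank 20) and chromosome 6 (31075573 to 31075691, rank 23). None of these 5 had a peak in any of the other 7 lists. By contrast, all 78 silenced 48 h peaks found at 6 h and all 159 silenced basal peaks found at 6 h also had a peak in at least 1 unsilenced list. Nearly all silenced 6 h peaks had one too, since only 48 of the 4325 (1.11%) had none.

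The silenced 6 h peaks were spread over the chromosomes much like the unsilenced 6 h hepatectomy peaks. Chromosome 11 held the largest share of the autosomes in both lists, 7.40% silenced and 7.27% unsilenced, and chromosome 18 the smallest, 3.24% and 3.22%. Chromosome X held 25 silenced peaks (0.578%) and 255 unsilenced peaks (1.16%). Runs of at least 3 silenced 6 h peaks with gaps of 20000 bp or less numbered 108 and held 362 peaks (8.37%). The runs with the most peaks had 6 and lay on chromosome 4 (149148343 to 149174220), chromosome 8 (129331160 to 129374009) and chromosome 9 (44134378 to 44205170). In the silenced basal list the run on chromosome 9 held 2 peaks and in the silenced 48 h list 1, while the other 2 runs held none in either.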

How the data were processed

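The authors immunoprecipitated XBP1 with the antibody M-186 from formaldehyde-fixed liver, per the labels' protocols, and deposited 1 peak list per library. Reads were aligned with Bowtie2 and peaks called with MACS 1.4.2 on mm9, per the submitters' processing notes; no source used here gives the settings. The deposited score was read as −log10 of a p-value because its lowest values lie near 5. The lowest score was 4.33 in the silenced 48 h list and between 5.08 and 5.27 in the other lists, so the threshold of that list may differ. Groups follow the sample titles, and input DNA was not used here. Members, lists, tests and alternatives were chosen with earlier results of these data known.

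Peaks sharing at least 1 bp were called shared, and shares were given Clopper-Pearson 95% intervals. Named sites were the 10 highest-scoring silenced 6 h peaks found at 6 h alone, the 10 found in all 3 silenced lists, and 5 each of those in no unsilenced list, the widest, and the silenced basal and 48 h peaks absent at 6 h. Planned counts near genes of fixed lists and cell type markers were not run, since the gene table at hand is on GRCm38, another build. Python 3.11.15, NumPy 2.4.6, pandas 2.3.3, SciPy 1.17.1 and matplotlib 3.10.9 were used. Counting was tested on simulated lists against bedtools 2.31.1.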

Additional observations from a re-analysis of the deposited data

How the results depend on the processing

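Of 52 recomputed values, 32 stayed within the interval of the value given, or within 1.5 times for peak numbers. Some of the 32 could not move. The widest silenced peak had 1475 bp, and all silenced peaks lay on chromosomes 1 to 19 and X. A limit to peaks of 2 kb or less on these chromosomes therefore left every value between silenced lists unchanged. Likewise, keeping only peaks over 100 bp dropped no silenced 6 h or unsilenced basal peak. The 20 values that moved follow, and their causes were not tested beyond what each setting does by construction. Where at least 50% of each peak had to lie in the other, 99.4% of the silenced 6 h peaks were absent from both other silenced lists and 61.2% from the unsilenced basal list. At that setting 15.3% of silenced basal and 6.86% of silenced 48 h peaks were found at 6 h, and 26.5% of silenced 48 h peaks in the silenced basal list. With lists cut to equal numbers of highest scores, the first 4 of these values were 37.3%, 43.8%, 64.4% and 53.9%, in the same order. With a score of at least 10, 97.5% of silenced 6 h peaks were absent from both lists, and the ratio of silenced 48 h to silenced 6 h peak numbers was 0.0142. With a score of at least 20 it was 0.00433, and the ratio of silenced 6 h to silenced basal numbers was 66.0. With peaks over 100 bp only, the absent share was 98.2%, the silenced 48 h share in the silenced basal list 66.0%, and the ratios 48.1 (6 h to basal) and 0.0109 (48 h to 6 h). That silenced 48 h share was 65.7% with midpoints within 250 bp and 67.6% with peaks resized to 500 bp. Without runs of silenced basal peaks, a setting chosen after seeing the data, 95.9% of silenced basal peaks were found at 6 h. No paired analysis was possible because each condition had 1 library. Unknown depth limits every comparison of peak numbers.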

Other observations

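A few silenced 6 h sites were as wide as, or wider than, their unsilenced 6 h hepatectomy counterparts. They were singled out after their values were seen, and the difference was not tested with 1 library per condition. Among the first 433 ranks of the silenced 6 h list, 10 peaks were not narrower than the counterpart, 5 of them among the first 100. Over the first 1000 ranks it was 24 of the 997 peaks with a counterpart, and over the whole list 79 of 4248. The site on chromosome 18 (90756170 to 90756775) was 606 bp wide at rank 37 in the silenced 6 h list, against 487 bp at rank 6588 in the unsilenced 6 h hepatectomy list. It was 889 bp wide at rank 261 in the 6 h sham list. Likewise, that on chromosome 6 (37743999 to 37744602) was 604 bp wide at rank 63 in the silenced list, against 489 bp at rank 2681 in the unsilenced 6 h hepatectomy list and 503 bp at rank 6824 in the 6 h sham list. On chromosome 3 (125459741 to 125460265) the silenced peak was 525 bp wide at rank 313 and the unsilenced one 304 bp at rank 16653, and no sham peak was called. On chromosome 11 (34712842 to 34713352) the widths were 511 bp silenced, at rank 180, and 419 bp unsilenced, at rank 8076. The wider pair of sites lay on chromosome 10 (47373657 to 47374416) and chromosome 6 (37546811 to 37547694). Their silenced 6 h widths were 760 bp and 884 bp, at ranks 15 and 19. In the unsilenced 6 h hepatectomy list they were 759 bp and 735 bp, at ranks 398 and 284. In the 6 h sham list they were 895 bp and 744 bp, at ranks 121 and 136. Their ranks in the unsilenced basal list were 63 and 40. Both of these sites also had a silenced basal peak. Ranks from lists of unlike length do not by themselves show a change.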
